A study of Mus musculus with 24 samples.

Results

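Bone marrow cells that lack STAT6 were grown in macrophage cultures with or without IL-4. The 3 cultures with IL-4 were set against 3 cultures of the same mice without it. These 6 arrays were chosen by their titles, which name the STAT6 KO genotype, IL-4 or control treatment and mouse 4, 5 or 6 without RSG, and they are 6 of 24 arrays in all. The other 18 arrays cover the same KO mice with RSG and 3 WT mice (1, 2 and 3) in all 4 conditions. Each value was a ratio of a probe set to its own median over the arrays, taken here to log2, so it holds no absolute level and levels of different genes cannot be compared.

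Marrow cells of Stat6-/- and WT mice, all on the C57Bl/6 background, were cultured for 10 days, and every group had M-CSF at 20 ng/ml. The KO IL-4 group had IL-4 at 20 ng/ml and the vehicle of RSG, a mix of DMSO and ethanol, and the KO control group had the vehicle alone. The groups set beside them were KO IL-4 with 1 µM RSG, KO control with RSG, WT IL-4 with vehicle and WT control with vehicle, each from 3 mice. The animals lacked Stat6 in every cell, not in macrophages alone. The cultures were bulk samples, in which fewer cells of a type and less RNA per cell cannot be told apart. The p-values rest on the spread between the 3 arrays of a group, pooled over all 8 groups.

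IL-4 binds the IL-4 receptor alpha chain, which pairs with the common gamma chain or with the IL-13 receptor, and the Janus kinases on these chains phosphorylate STAT6. Phosphorylated STAT6 moves to the nucleus and switches on the genes of alternative activation, such as arginase and chitinase-like proteins. The same receptor also recruits IRS2 and the PI3 kinase pathway, and in some cells STAT5. Which part of the IL-4 response is left when STAT6 is absent is the question this comparison addresses. The targeted gene was low on every KO array: the log2 ratio of Stat6 lay between -2.12 and -1.48 on 12 KO arrays and between 0.71 and 1.14 on 12 WT arrays. For the macrophage growth factor receptor Csf1r and the lysozyme gene Lyz2, as for every gene, ratios cannot show how abundant the transcripts were.

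IL-4 changed a large part of the KO transcriptome. Of 45037 probe sets, 5186 (11.5%) passed both limits of a call, a limma adjusted p under 0.05 and a change of 1.5-fold or more, 1915 higher (4.25%) and 3271 lower (7.26%). With 1 probe set per gene, 2194 of 18193 genes (12.1%) were called, 921 higher (5.06%) and 1273 lower (7.0%). A change is given throughout as mean log2 ratio with IL-4 minus mean log2 ratio without it, ± SE. The median change over all genes was -0.15, since the array medians were -0.22, -0.12 and -0.13 in KO IL-4 cultures, against -0.06, 0.01 and -0.00 in KO controls (mice 4, 5 and 6). Higher probe sets made up 36.9% of the calls, and 54.0% (2436 higher and 2076 lower) after the median of each array was subtracted (centring). Each small change should be read against that shift. The 6 genes fixed as common references and the 8 ribosomal and elongation factor genes had no call, with medians of 0.08 and -0.05. Changes of the reference genes ran from -0.25 to 1.56, and 1 was called higher after centring or quantile normalization. Those of the ribosomal and elongation factor genes ran from -0.73 to 0.15.

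Many of the largest rises were genes of mast cells, basophils and lymphocytes. The 15 genes with the largest called rises and separate arrays were Gzmb, Fcer1a, Mcpt8, Il6, Cyp11a1, Arg1, Slfn1, Scin, Gzmc, Hdc, Cd200r3, Cpa3, Cma1, Cd3d and Gzmg, with changes between 6.66 and 10.10. Cyp11a1, which makes pregnenolone from cholesterol, had log2 ratios of 6.74, 6.34 and 6.70 in KO IL-4 cultures, against -1.06, -1.87 and -1.41 in KO controls, and rose by 8.04 ± 0.86 (adjusted p = 5e-06). Slfn1, a growth-regulating Schlafen gene of lymphoid cells, had log2 ratios of 6.96, 7.46 and 7.62 in KO IL-4 cultures, against 1.67, -2.39 and -0.89 in KO controls. Scin, an actin-severing protein, had log2 ratios of 5.83, 5.19 and 5.72 in KO IL-4 cultures, against -0.11, -5.22 and -0.98 in KO controls. The IL-4-treated arrays lay close together for these genes, and the spread was on the control side. All 15 were also called higher by IL-4 in the KO cultures with RSG, and 2 of them, Gzmb and Arg1, were called higher in WT.

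The largest falls were smaller than the largest rises. The 15 ran between -4.15 for Lrat and -3.31 for 1700009N14Rik. Hmga2, a chromatin protein of growing cells, had log2 ratios of -2.31, -2.58 and -2.83 in KO IL-4 cultures, against 1.34, 1.23 and 1.18 in KO controls, a fall by 3.82 ± 0.60 on the log2 scale (adjusted p = 0.00023). Mmp2, a gelatinase, had log2 ratios of -0.97, -2.55 and -3.25 in KO IL-4 cultures, against 1.24, 1.47 and 1.54 in KO controls. Me1, the cytosolic malic enzyme that supplies NADPH, had log2 ratios of -2.82, -3.06 and -2.95 in KO IL-4 cultures, against 0.40, 0.62 and 0.74 in KO controls. The arrays of these 3 genes did not overlap between groups, as the rule that chose the 15 required. Hmga2, Me1 and Arfgef3 were also called lower with RSG, by 3.12, 2.45 and 2.42 on the log2 scale. The calls of several other falls did not hold without single mice: Lrat lost its call without mouse 4 or 5 (adjusted p = 0.196 and 0.126), and so did Katnal2 (adjusted p = 0.118 and 0.13).

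**Figure D1:**
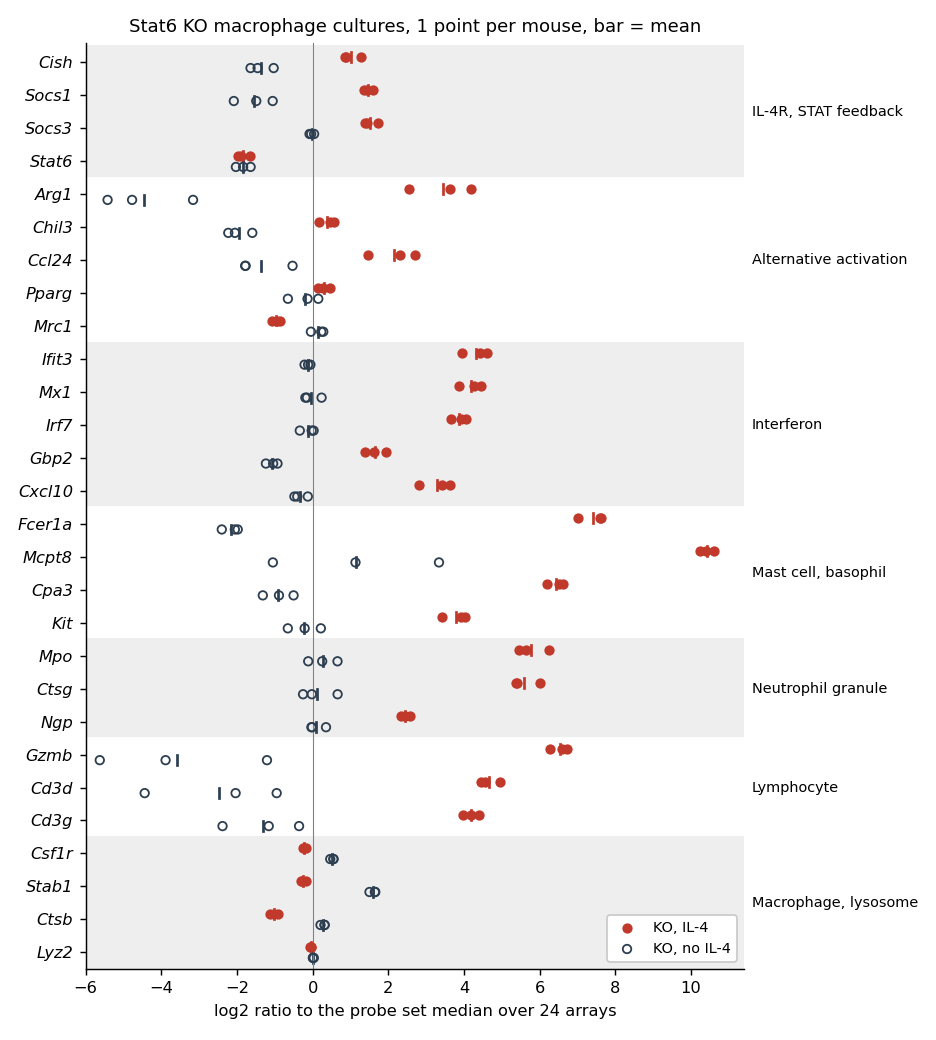
Log2 ratio (horizontal axis) of 28 genes in the KO IL-4 cultures (filled points) and the KO control cultures (open points) of mice 4, 5 and 6, with bars at the group means. The mast cell, neutrophil and interferon-stimulated genes shown had separate groups, whereas Lyz2 lay between -0.06 and 0.03 on all 6 arrays.

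The receptor pathway was considered first. Of 17 measured genes of IL-4 receptor signalling, 6 rose and 0 fell (median 0.46), against 5.06% and 7.0% of all genes. The 6 became 3 without mouse 4 and 2 without mouse 5. Il4ra, the receptor chain itself, differed by 0.10 and was not called. Jak2, a receptor-bound kinase, rose by 1.07 ± 0.13 (adjusted p = 2.9e-05), against 1.38 in WT. Socs1, a feedback inhibitor of Janus kinases, had log2 ratios of 1.36, 1.44 and 1.60 in KO IL-4 cultures, against -2.08, -1.49 and -1.06 in KO controls, and rose by 3.01 ± 0.73 (adjusted p = 0.0077). That call was lost without mouse 5 (adjusted p = 0.0863). In WT the change of Socs1 was 3.58, and the difference between the genotypes was not called.

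Targets of STAT5 or STAT3 were the next list. Of 15 measured, 9 rose and 0 fell (median 1.55), and in WT 7 rose and 3 fell (median 0.55). Cish, a feedback inhibitor and common STAT5 target, had log2 ratios of 0.89, 0.85 and 1.29 in KO IL-4 cultures, against -1.45, -1.64 and -1.03 in KO controls. Its rise was 2.39 ± 0.22 (adjusted p = 1.3e-06) in KO and 3.52 in WT. Ccnd2, a cell cycle entry cyclin, rose by 4.27, the cytokine Osm by 2.26, the survival kinase Pim2 by 1.94 and Myc by 1.45. Socs3, an inhibitor induced by STAT3, had log2 ratios of 1.37, 1.45 and 1.74 in KO IL-4 cultures, against 0.04, -0.08 and -0.04 in KO controls. The groups of Socs3 did not overlap, but its call rested on the whole set of arrays: the rise of 1.55 ± 0.51 had an adjusted p of 0.048, and 14 of 21 alternatives lost it (adjusted p up to 0.164 without mouse 4).

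Part of the alternative activation program moved without STAT6. Of 24 measured genes, 9 rose and 1 fell in KO (median 2.17), against 20 and 0 in WT (median 3.33). The mean over the list was 0.44, 0.79 and 0.88 on the KO IL-4 arrays, against -1.64, -1.14 and -1.11 on the KO control arrays. Arg1, which splits arginine into ornithine and urea, had log2 ratios of 2.56, 3.63 and 4.17 in KO IL-4 cultures, against -4.77, -5.42 and -3.16 in KO controls, and rose by 7.90 ± 1.0 (adjusted p = 2.8e-05). In WT, Arg1 had log2 ratios of 8.35, 8.36 and 8.42 in IL-4 cultures, against -3.38, -2.71 and 2.19 in controls. The KO IL-4 cultures thus lay well below the WT IL-4 cultures on the same probe set. The KO minus WT difference of the Arg1 change, -1.78, was not called (adjusted p = 0.48). It was -3.52 without the WT control array of mouse 3 alone. Without the arrays that stood apart, described below, it was -3.86, with 1 WT control array left. The array of mouse 3 was set apart partly by its Arg1 value, so its omission cannot test this difference.

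The other members fell into 3 kinds. Some rose in both genotypes: Ccl24, an eosinophil-attracting chemokine, had log2 ratios of 1.45, 2.70 and 2.30 in KO IL-4 cultures, against -1.78, -0.53 and -1.77 in KO controls, with a rise of 3.51 ± 0.66 in KO and 4.91 in WT, with no call on the difference (adjusted p = 0.38). Pdcd1lg2, an inhibitory ligand of T cells, rose by 2.33 ± 0.34 in KO and 5.30 in WT, and that difference was called (-2.97 ± 0.49, adjusted p = 0.00034). Others were called higher in KO cultures and not in WT. Ccl22, a chemokine of type 2 lymphocytes, had log2 ratios of 3.11, 2.90 and 3.48 in KO IL-4 cultures, against -1.05, -1.12 and -1.66 in KO controls, and rose by 4.44 ± 0.61 in KO against a change of -0.68 in WT (difference 5.12 ± 0.86, adjusted p = 0.00045). Alox15, a lipoxygenase, rose by 4.35 ± 0.91 in KO against -0.26 in WT, a KO call lost without mouse 6 (adjusted p = 0.0632).

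The rest did not pass the test in KO, or fell. Slc7a2, an arginine transporter, had log2 ratios of -0.21, 0.18 and 0.04 in KO IL-4 cultures, against -0.09, -0.30 and -0.04 in KO controls, while WT IL-4 cultures were at 5.73, 5.85 and 5.82, against 0.03, -0.31 and 0.69 in WT controls. That is a change of 0.15 (adjusted p = 0.78) in KO and of 5.66 in WT, a difference of -5.51 ± 0.34 (adjusted p = 9.8e-09). The C-type lectin gene Mgl2 changed by 2.24 in KO (adjusted p = 0.05) and by 5.80 in WT, and that difference was called (adjusted p = 0.027). The mannose receptor Mrc1 had log2 ratios of -1.07, -0.85 and -0.95 in KO IL-4 cultures, against -0.05, 0.28 and 0.23 in KO controls, so it fell in KO, whereas it rose by 1.01 in WT.

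Genes of PPARγ signalling and lipid handling had fewer rises in KO than in WT cultures. Of 23 measured, 3 rose and 0 fell in KO (median 0.22), against 5.06% and 7.0% of all genes. After centring or quantile normalization 7 rose and 0 fell. Without mouse 5, 1 rose. In WT, 11 rose and 1 fell (median 0.97). Pparg itself changed by 0.51 (adjusted p = 0.19) in KO and 2.43 in WT. Olr1, a receptor for oxidised lipoprotein, had log2 ratios of 0.23, -0.14 and 0.53 in KO IL-4 cultures, against -1.14, -2.02 and -2.95 in KO controls, and its call was lost without mouse 5 or 6 (adjusted p = 0.1 and 0.227). Plin2, which coats lipid droplets, changed by 0.22 ± 0.13 in KO (adjusted p = 0.32) and by 0.90 ± 0.13 in WT, a called difference of -0.68 ± 0.19 (adjusted p = 0.017).

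**Figure D2:**
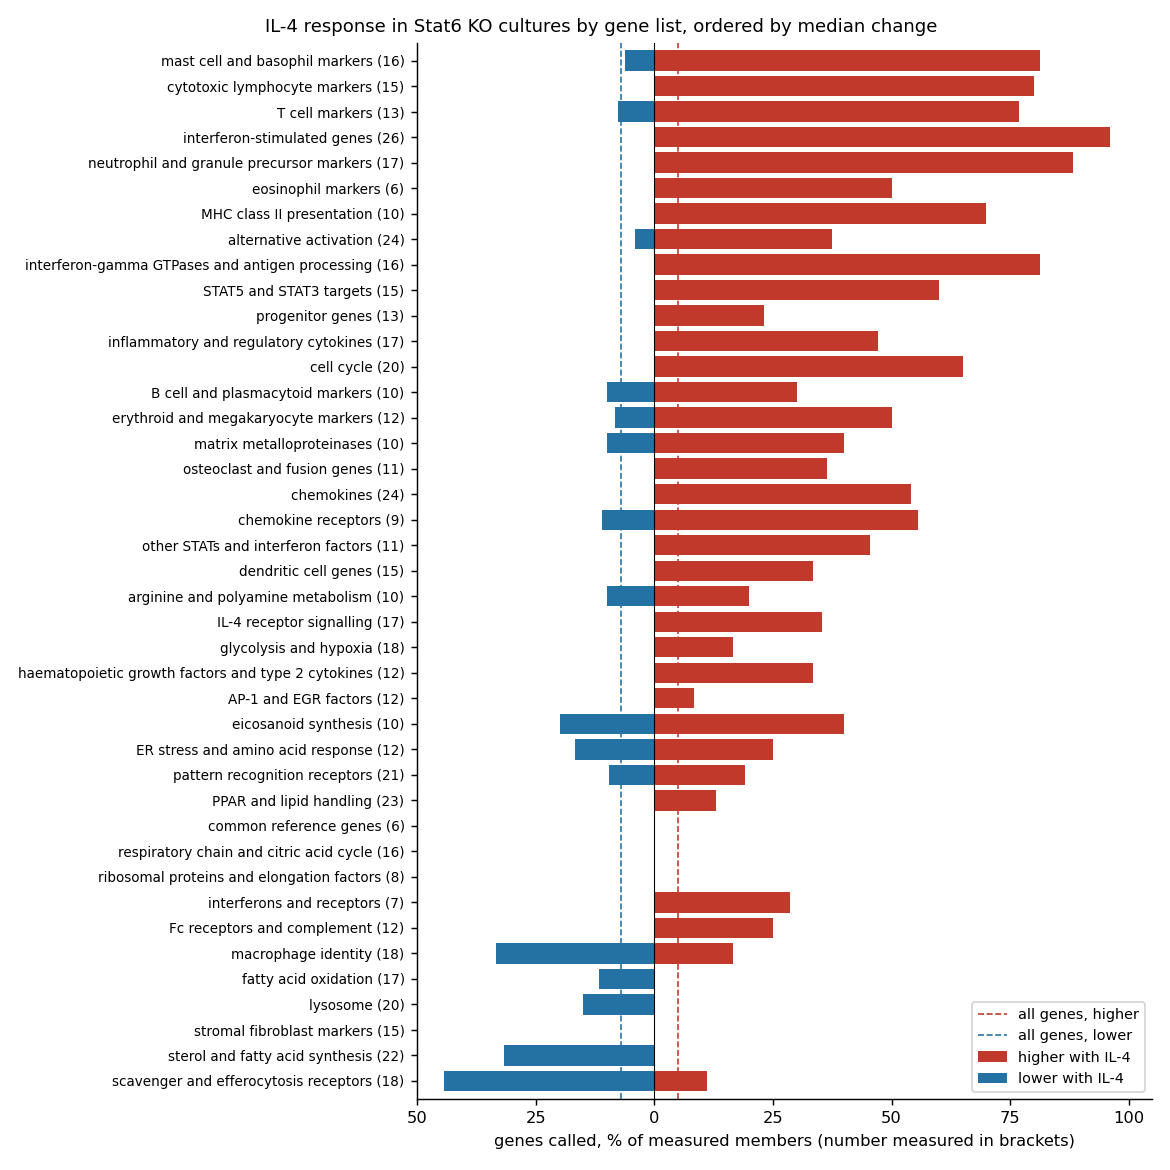
Share of the measured members of each gene list that were called higher (right, red) or lower (left, blue) with IL-4 in KO cultures, in percent, with lists ordered by the median change and the number measured in brackets. Dashed lines mark 5.06% and 7.0%, the shares of all genes called higher and lower.

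Interferon-stimulated genes rose almost without exception. These genes encode antiviral enzymes and sensors, and are switched on by interferon receptors through factors that bind a promoter element called ISRE. Of 26 measured, 25 rose and 0 fell in KO cultures, with changes between 0.99 and 4.61 over the whole list and a median of 3.22. In WT, 1 rose, Usp18, and 12 fell (median -0.56). The list mean was 2.43, 2.79 and 2.87 on the KO IL-4 arrays, against -0.34, -0.34 and -0.08 on the KO control arrays, and -0.997, -0.78 and -0.64 on the WT IL-4 arrays, against -0.15, -0.04 and 0.18 on the WT control arrays. The counts in KO cultures moved by at most 1 gene under centring, quantile normalization, a fit on the 6 arrays alone or without the arrays that stood apart.

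Promoters of some genes that rose are shown, chosen because they held a motif found in many, but not all, of the interferon-stimulated genes. The window ran from 250 bases before to 50 after the RefSeq start on GRCm38.p6, and 14452 of 18193 genes had at least 1 window, with a mean of 1.25 per gene. The core of the ISRE was searched on both strands as GAAA, any 2 bases and GAAA again. It was in 10 of the 17 interferon-stimulated genes with a window (58.8%) and in 6 of 12 genes of the interferon-gamma list (50%), against 524 of 14452 of all genes with a window (3.63%). Among the genes that rose with IL-4 in KO cultures it was in 73 of 723 (10.1%), and among those that fell in 14 of 1037 (1.35%). In the alternative activation, mast cell, neutrophil and cell cycle lists it was in 0 of 15, 13, 16 and 17 genes with a window. Lists this short would hold few or no matches at the 3.63% of all genes. The interferon-stimulated genes Ifit2, Oasl1, Oasl2, Cmpk2, Xaf1, Herc6 and Isg20 had a window but no match. A match is a description of letters and not a site. The stretches below run 5′ to 3′ on the gene's strand, with the matches in capitals (TTTC, 2 bases and TTTC is the same core read on the other strand). Ifit3 and Ifit1 encode proteins that bind viral RNA, Rsad2 encodes viperin, Cxcl10 a lymphocyte-attracting chemokine, Gbp2 a GTPase of the interferon-gamma response, and Socs1 the inhibitor above.
Ifit3, chr19:34583350-34583439, plus strand: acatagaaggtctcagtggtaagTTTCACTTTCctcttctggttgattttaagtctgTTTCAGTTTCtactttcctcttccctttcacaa
Ifit1, chr19:34640754-34640843, plus strand: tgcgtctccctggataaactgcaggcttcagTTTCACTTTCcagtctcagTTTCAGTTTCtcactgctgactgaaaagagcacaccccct
Rsad2, chr12:26456523-26456612, minus strand: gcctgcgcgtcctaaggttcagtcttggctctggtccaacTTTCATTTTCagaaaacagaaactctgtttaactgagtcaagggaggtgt
Cxcl10, chr5:92349050-92349139, minus strand: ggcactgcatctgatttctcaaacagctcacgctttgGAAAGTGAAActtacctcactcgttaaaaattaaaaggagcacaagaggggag
Gbp2, chr3:142620564-142620653, plus strand: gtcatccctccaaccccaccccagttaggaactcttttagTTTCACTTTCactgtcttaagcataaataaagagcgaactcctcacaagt
Socs1, chr16:10785567-10785656, minus strand: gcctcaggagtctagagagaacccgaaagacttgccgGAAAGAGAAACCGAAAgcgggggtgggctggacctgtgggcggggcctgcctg

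Ifit3 held 2 matches between positions -156 and -113 relative to its start, Ifit1 held 2 between -104 and -76, and Socs1 held 2 that overlap. The STAT5 and STAT3 element TTCNNNGAA was in 3 of 11 genes with a window of the STAT5 and STAT3 target list (27.3%), in 5 of the interferon-stimulated genes (29.4%) and in 8.57% of all genes with a window. The STAT6 element, which has 4 bases between TTC and GAA, was in 5 of 15 genes of the alternative activation list (33.3%), against 6.94% of all genes with a window and 8.30% of those that rose in KO cultures. That STAT6 element was also in 17.65% of interferon-stimulated, 16.67% of interferon-gamma and 12.5% of neutrophil genes with a window. In the STAT5 and STAT3, cell cycle and mast cell lists it was in 9.09%, 5.88% and 0%. TTCNNNGAA was in 3 of 15 genes of the alternative activation list (20%). The 15 genes of the alternative activation list had more windows each (mean 1.53) than all genes (1.25), and the 11 of the STAT5 and STAT3 list had 1.36. Both elements read the same on the other strand. Socs3 is shown for the first of these, in capitals.
Socs3, chr11:117969472-117969561, minus strand: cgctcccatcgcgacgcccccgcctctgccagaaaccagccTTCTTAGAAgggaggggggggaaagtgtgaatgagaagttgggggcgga

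The levels of the genes with printed promoters separated the groups on every array. Ifit1 had log2 ratios of 3.64, 3.95 and 4.11 in KO IL-4 cultures, against -0.02, -0.11 and 0.40 in KO controls, and rose by 3.81 ± 0.22. Rsad2 had log2 ratios of 2.58, 3.40 and 3.31 in KO IL-4 cultures, against -0.71, -1.23 and -0.25 in KO controls, and rose by 3.83 ± 0.29 (adjusted p = 1.3e-07). Ifit3 had log2 ratios of 3.94, 4.61 and 4.43 in KO IL-4 cultures, against -0.21, -0.12 and -0.06 in KO controls. Oasl2 (a ligase-like antiviral gene of the oligoadenylate synthase family) and Mx1 (a GTPase that blocks viral replication) rose by 4.36 ± 0.26 and 4.22. Eif2ak2, the kinase that stops translation on double-stranded RNA, had the smallest called rise, 0.99 (adjusted p = 0.002). Xaf1 changed by 1.16 ± 0.39 and was not called (adjusted p = 0.053).

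The transcription factors of the pathway and genes of the interferon-gamma response rose too. Of 11 other STAT and interferon factor genes, 5 rose and 0 fell in KO, and 0 rose and 4 fell in WT. Irf7, which amplifies interferon production, had log2 ratios of 3.65, 3.93 and 4.05 in KO IL-4 cultures, against -0.34, 0.03 and -0.03 in KO controls, and rose by 3.99 ± 0.33 (adjusted p = 3.3e-07). Of 16 interferon-gamma GTPase and antigen processing genes, 13 rose and 0 fell in KO (median 1.84), and 1 rose and 1 fell in WT. The guanylate-binding protein Gbp6 had log2 ratios of 4.39, 4.77 and 4.94 in KO IL-4 cultures, against -0.29, -0.41 and -1.01 in KO controls, a rise of 5.27 ± 0.63 (adjusted p = 1.5e-05). Gbp2 had log2 ratios of 1.38, 1.61 and 1.94 in KO IL-4 cultures, against -0.93, -1.24 and -1.04 in KO controls. The immunity-related GTPase Irgm1 rose by 2.32 and Nlrc5, an activator of MHC class I genes, by 2.75, whereas B2m, the MHC class I light chain, differed by 0.07.

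Among 7 interferons and receptors, 2 rose. Ifng, the lymphocyte interferon, had log2 ratios of 2.88, 2.47 and 2.83 in KO IL-4 cultures, against -3.21, -2.93 and -1.07 in KO controls, and rose by 5.13 ± 0.97 (adjusted p = 0.0012). The groups did not overlap, and with RSG the rise was 5.14. The second, Ifna4, rose by 2.22 (adjusted p = 0.049), and 14 of its alternatives lost that call (adjusted p up to 0.172, without mouse 4). Ifnb1 changed by 0.97 and was not called (adjusted p = 0.1).

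Inflammatory mediators rose next to the interferon-stimulated genes. Of 17 inflammatory and regulatory cytokines, 8 rose and 0 fell in KO (median 1.47), against 0 and 8 in WT (median -0.95). Il1b had log2 ratios of 2.70, 2.88 and 3.49 in KO IL-4 cultures, against -0.37, -0.06 and 0.02 in KO controls, and rose by 3.16 ± 0.32 (adjusted p = 2.7e-06), while it fell by 1.85 on the log2 scale in WT. Il1rn, the natural antagonist of IL-1, had log2 ratios of 1.63, 2.07 and 1.84 in KO IL-4 cultures, against -0.60, -0.68 and -0.59 in KO controls. Il12b, a subunit of IL-12 and IL-23, had log2 ratios of 3.16, 3.33 and 3.35 in KO IL-4 cultures, against -0.68, 0.36 and 0.01 in KO controls, a call lost without mouse 4 (adjusted p = 0.069). The 3 genes had no overlap between the groups. Tnf rose by 1.02 (adjusted p = 0.0082), and Il10, an inhibitory cytokine, changed by 0.40 (adjusted p = 0.41).

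Chemokines followed the same direction. Of 24, 13 rose and 0 fell in KO (median 0.94), 10 and 0 after quantile normalization, and 4 rose and 9 fell in WT. Cxcl10, an interferon-induced attractant of T cells, had log2 ratios of 2.81, 3.42 and 3.64 in KO IL-4 cultures, against -0.41, -0.48 and -0.13 in KO controls, and rose by 3.63 ± 0.37 in KO while it fell by 3.70 on the log2 scale in WT. Ccl12, a monocyte attractant, had log2 ratios of 4.63, 4.86 and 5.18 in KO IL-4 cultures, against -0.07, -0.997 and 0.02 in KO controls. Of 9 chemokine receptors 5 rose and 1 fell (5 and 0 after centring or quantile normalization). The lymph node homing receptor Ccr7 had log2 ratios of 4.42, 4.24 and 4.75 in KO IL-4 cultures, against -1.26, -4.07 and -0.33 in KO controls, a rise of 6.36 ± 1.09 (adjusted p = 0.00051).

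Growth factors of other blood lineages were examined because M-CSF was the factor added to every culture. Of 12 haematopoietic growth factors and type 2 cytokines, 4 rose and 0 fell in KO (median 0.34), or 2 and 0 without any 1 of the KO mice. Csf2, which encodes GM-CSF, had log2 ratios of 2.46, 2.74 and 3.06 in KO IL-4 cultures, against -0.83, -1.31 and -1.30 in KO controls, and rose by 3.90 ± 0.74 (adjusted p = 0.0013). Csf1, which encodes M-CSF, had log2 ratios of 1.71, 1.59 and 1.63 in KO IL-4 cultures, against -0.98, -0.89 and -0.53 in KO controls, and rose by 2.44 ± 0.45 (adjusted p = 0.00093). With RSG Csf1 overlapped between the groups, at 1.24, 1.30 and 0.82 in KO IL-4 cultures, against 0.25, 0.10 and 2.64 in KO controls. The overlap came from the value of 2.64, on the array of mouse 6, which is among those that stood apart, described below. The type 2 cytokines Il13 and Il4 rose by 1.93 and 1.87, and both calls were lost without mouse 4, 5 or 6 (adjusted p between 0.0526 and 0.21). Il3, Il5, Il9 and Csf3, growth factors of mast cells, eosinophils and granulocytes, changed by -0.83, -0.71, -1.20 and -0.67 and were not called.

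Markers of mast cells and basophils made up the list with the highest median. Of 16, 13 rose and 1 fell in KO (median 5.55), and 14 rose and 1 fell with RSG (median 5.82), against 1 and 0 in WT (median 0.46). Its mean was 4.41, 3.91 and 4.65 on the KO IL-4 arrays, against -1.04, -0.87 and 0.08 on the KO control arrays. On the WT arrays it was -0.21, -0.06 and -0.58 with IL-4, against -1.65, -1.14 and 0.61 without. Fcer1a, the IgE-binding chain of the high-affinity IgE receptor, had log2 ratios of 7.59, 7.01 and 7.62 in KO IL-4 cultures, against -2.06, -2.40 and -1.98 in KO controls, and rose by 9.55 ± 0.65 (adjusted p = 4.5e-08). Kit, the stem cell factor receptor of mast cells and progenitors, had log2 ratios of 3.93, 3.41 and 4.02 in KO IL-4 cultures, against -0.21, 0.22 and -0.66 in KO controls, and rose by 4.00 ± 0.54. The basophil protease Mcpt8 had log2 ratios of 10.41, 10.23 and 10.61 in KO IL-4 cultures, against -1.05, 1.13 and 3.34 in KO controls.

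These 3 genes were high on every IL-4 array, and Mcpt8 varied most among the controls. The transcription factor Gata2 had log2 ratios of 3.61, 3.67 and 3.56 in KO IL-4 cultures, against -3.88, -0.40 and -0.35 in KO controls. Mcpt4, a chymase of connective tissue mast cells, had log2 ratios of 2.84, 2.98 and 3.68 in KO IL-4 cultures, against -1.12, 0.02 and -0.68 in KO controls, a rise of 3.76 ± 0.64 (adjusted p = 0.00046). Members of the list did not all move together. The tryptase gene Tpsab1 had log2 ratios of -1.64, -0.85 and 0.49 in KO IL-4 cultures, against -0.58, -1.27 and 1.29 in KO controls, with overlap between the groups and no call. The member that fell was Ltc4s, the leukotriene C4 synthase that macrophages also use, at -1.78, -4.80 and -1.39 in KO IL-4 cultures, against 0.67, 0.57 and 0.63 in KO controls (log2 ratios).

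Of 6 eosinophil markers 3 rose and 0 fell. Prg3, a granule protein related to major basic protein, had log2 ratios of 4.63, 4.43 and 4.49 in KO IL-4 cultures, against -2.16, -0.54 and -1.52 in KO controls, and rose by 5.92 ± 0.78 (adjusted p = 4.2e-05). Epx, eosinophil peroxidase, had log2 ratios of 3.66, 3.40 and 3.74 in KO IL-4 cultures, against -0.08, 0.04 and 0.08 in KO controls. The groups did not overlap for either gene, and the Epx call was lost without mouse 4 or 6 (adjusted p = 0.097 and 0.069). Siglecf (1.39, adjusted p = 0.079) and the IL-5 receptor chain Il5ra (-0.78) were not called.

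Granule genes of neutrophils and their precursors rose in KO cultures, where WT cultures had falls. Of 17, 15 rose and 0 fell in KO (median 3.15), and 0 rose and 9 fell in WT (median -1.65). The list mean was 2.78, 2.85 and 3.18 on the KO IL-4 arrays, against -0.42, -0.28 and 0.15 on the KO control arrays, and -2.60, -2.20 and -2.07 on the WT IL-4 arrays, against -0.68, -0.09 and 0.33 on the WT control arrays. Primary granule genes, made at the promyelocyte stage, were among the highest: Ctsg had log2 ratios of 5.40, 5.37 and 6.00 in KO IL-4 cultures, against -0.25, -0.02 and 0.66 in KO controls, and rose by 5.46 ± 0.35 (adjusted p = 2.1e-08). Mpo, myeloperoxidase, had log2 ratios of 5.45, 5.64 and 6.24 in KO IL-4 cultures, against -0.12, 0.25 and 0.66 in KO controls. Elane, neutrophil elastase, had log2 ratios of 3.33, 3.53 and 4.08 in KO IL-4 cultures, against -0.39, -0.34 and -0.25 in KO controls. All 3 were separate on every array.

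Later granule genes were also higher. Camp, the cathelicidin of secondary granules, had log2 ratios of 3.68, 3.53 and 3.80 in KO IL-4 cultures, against 0.00, 0.15 and 0.30 in KO controls, and rose by 3.52 ± 0.57 (adjusted p = 0.00033) in KO while it fell by 4.94 on the log2 scale in WT. S100a8, a calcium-binding protein of neutrophils and monocytes, rose by 0.97 ± 0.26 (adjusted p = 0.014) on a probe set that can detect other transcripts. Csf3r, the G-CSF receptor, changed by 0.19 (adjusted p = 0.55).

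Lymphocyte genes rose, with exceptions among defining ones. Of 15 markers of cytotoxic lymphocytes, 12 rose and 0 fell in KO (median 5.01), and 3 rose and 0 fell in WT (median 1.21). Averaged over the list, ratios were 3.33, 3.39 and 3.44 on the KO IL-4 arrays, against -1.53, -1.34 and -1.15 on the KO control arrays. Il2rb, a receptor chain for IL-2 and IL-15, had log2 ratios of 2.69, 2.73 and 3.09 in KO IL-4 cultures, against -2.83, -3.89 and -1.66 in KO controls, a rise of 5.63 ± 0.81 (adjusted p = 9.7e-05). Perforin, Prf1, which carries granzymes into target cells, had log2 ratios of -0.40, -0.52 and -0.41 in KO IL-4 cultures, against 0.04, 0.32 and 0.67 in KO controls, and was not called (-0.79 ± 0.38, adjusted p = 0.2). Granzymes and perforin thus did not move together.

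Of 13 T cell markers, 10 rose and 1 fell in KO (median 3.35), and 3 rose and 2 fell in WT. Cd3g, a chain of the T cell receptor complex, had log2 ratios of 4.17, 3.99 and 4.40 in KO IL-4 cultures, against -2.38, -1.16 and -0.36 in KO controls, and rose by 5.49 ± 0.66 (adjusted p = 1.7e-05). Cd8b1, a chain of the CD8 coreceptor, had log2 ratios of 3.77, 3.69 and 4.36 in KO IL-4 cultures, against -1.62, -0.77 and -0.37 in KO controls. Cd4 had log2 ratios of -0.59, -1.72 and 2.26 in KO IL-4 cultures, against 0.92, -0.86 and 1.69 in KO controls, with overlap and no call. The CD8 chain therefore separated the groups where Cd4 did not. Cd28, a costimulatory receptor, fell, at -0.10, -0.11 and -0.20 in KO IL-4 cultures, against 0.79, 0.91 and 0.82 in KO controls (log2 ratios).

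Other lineages were sampled by shorter lists. Of 10 B cell and plasmacytoid markers 3 rose, or 1 without mouse 5 or 6, and 1 fell. Ms4a1, which encodes CD20, had log2 ratios of 2.42, 3.76 and 4.10 in KO IL-4 cultures, against -2.11, -0.53 and -0.97 in KO controls, and rose by 4.63 ± 0.71 (adjusted p = 0.00018). Of 12 erythroid and megakaryocyte markers 6 rose and 1 fell. Ppbp, a platelet chemokine, had log2 ratios of 5.36, 5.52 and 5.56 in KO IL-4 cultures, against -0.00, 0.59 and -0.23 in KO controls, and rose by 5.36 ± 0.42 (adjusted p = 1.7e-07). Of 13 progenitor genes 3 rose and 0 fell. Myb, a transcription factor of immature blood cells, had log2 ratios of 4.64, 4.92 and 5.65 in KO IL-4 cultures, against 0.86, -0.75 and 0.94 in KO controls. The groups did not overlap for these 3 genes.

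Dendritic cell genes split. Of 15, 5 rose and 0 fell in KO (median 0.60), and 4 rose and 4 fell in WT. Fscn1, an actin-bundling protein of mature dendritic cells, had log2 ratios of 4.18, 3.92 and 4.54 in KO IL-4 cultures, against -1.79, -1.56 and -0.93 in KO controls. Itgax, the integrin CD11c, changed by 0.20 in KO (adjusted p = 0.8) and by 3.39 in WT, a called difference of -3.19 ± 0.51. Of 10 genes of MHC class II presentation, 7 rose and 0 fell in KO (median 2.20), and 3 rose and 0 fell in WT (median 0.85). H2-Aa, an MHC class II alpha chain, had log2 ratios of 0.10, 0.37 and 0.36 in KO IL-4 cultures, against -2.16, -2.15 and -2.18 in KO controls, and rose by 2.44 ± 0.34 in KO and 1.63 in WT. That difference between genotypes was not called. Ciita, the activator of these genes, changed by 0.25 (adjusted p = 0.91).

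The marker lists of other blood cells moved with the same contrast as the interferon-stimulated, cytokine, growth factor and cell cycle genes. The mean of the mast cell list lay between 3.91 and 4.65 on the KO IL-4 arrays and between -1.04 and 0.08 on the KO control arrays, that of the cytotoxic list between 3.33 and 3.44 and between -1.53 and -1.15, and that of the T cell list between 1.86 and 2.54 and between -1.11 and -0.60. Their part in the rises of the other lists was not tested. Of 15 stromal fibroblast markers 0 were called with IL-4 in KO cultures (median -0.51, range -3.24 to 1.14, with 4 above 0), 1 was lower with the mouse as a block, and 5 were called lower in the cultures with RSG. With vehicle the list mean was -0.76, -0.61 and -0.81 on the KO IL-4 arrays, against -0.59, -0.78 and 0.75 on the KO control arrays.

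**Figure D3:**
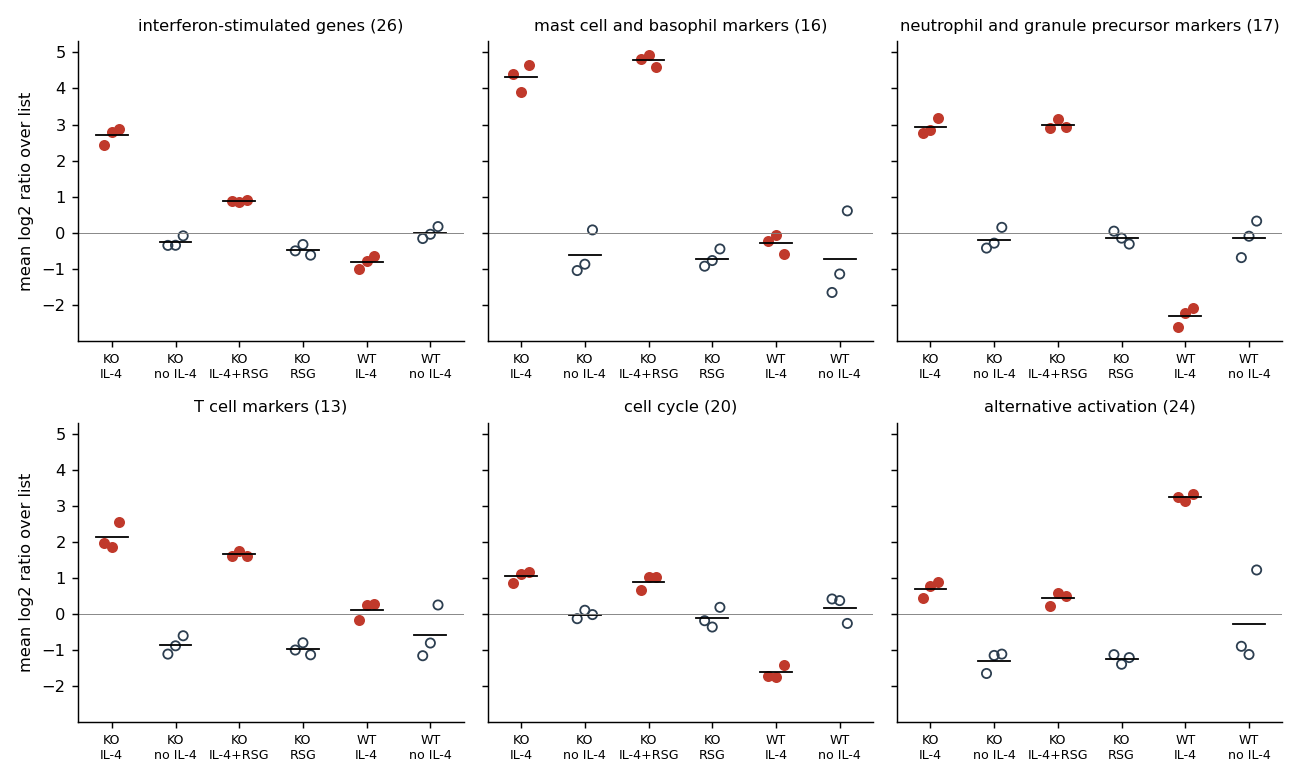
Mean log2 ratio over each of 6 gene lists (vertical axis) on each array, for KO IL-4, KO control, KO IL-4 with RSG, KO control with RSG, WT IL-4 and WT control cultures, 3 arrays a group. The interferon-stimulated mean lay between 2.43 and 2.87 in KO IL-4 cultures, between 0.85 and 0.92 with RSG added, and below 0 in WT IL-4 cultures.

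Genes of macrophage identity were less uniform. Of 18, 3 rose and 6 fell in KO (3 and 4 after centring, and 3 falls on the 6 arrays alone), with a median of -0.18, near the median of all genes. The list mean was 0.14, -0.03 and -0.01 on the KO IL-4 arrays, against 0.11, 0.24 and 0.10 on the KO control arrays. Csf1r, the M-CSF receptor, had log2 ratios of -0.24, -0.26 and -0.18 in KO IL-4 cultures, against 0.47, 0.55 and 0.55 in KO controls, and fell by 0.75 ± 0.12 on the log2 scale (adjusted p = 0.00024). In WT it fell by 0.95 on the log2 scale. Maf, a transcription factor of resident macrophages, had log2 ratios of -0.65, -0.43 and -0.52 in KO IL-4 cultures, against 1.08, 1.30 and 1.17 in KO controls. Lyz2, Spi1 and Cd68 changed by -0.07, -0.11 and -0.34 and were not called. Of those that rose, Siglec1, a lectin induced by interferon, gained 2.77 (adjusted p = 0.0015) and Fcgr1, the high-affinity IgG receptor, gained 1.89.

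Receptors for scavenging and for the uptake of dying cells formed the list with the lowest median in KO cultures. Of 18, 2 rose and 8 fell (2 and 6 after centring or quantile normalization), with a median of -0.68. Stab1, a receptor for modified lipoprotein and apoptotic cells, had log2 ratios of -0.18, -0.32 and -0.27 in KO IL-4 cultures, against 1.5, 1.65 and 1.64 in KO controls, and fell by 1.86 ± 0.23 on the log2 scale (adjusted p = 2e-05). Gas6, the bridging ligand of dying cells, had log2 ratios of -0.52, -0.66 and -0.88 in KO IL-4 cultures, against 1.15, 1.25 and 1.22 in KO controls. Cd163, the haemoglobin scavenger receptor, had log2 ratios of 0.17, 0.24 and 0.02 in KO IL-4 cultures, against 1.55, 2.73 and 2.51 in KO controls, a call lost without mouse 5 or 6 (adjusted p = 0.0725 and 0.0585). All 3 were separate between the groups. In WT, Stab1 fell by 5.57 on the log2 scale, a called difference of 3.71 between the genotypes.

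Lysosomal and sterol genes also had falls. Of 20 lysosomal genes 0 rose and 3 fell in KO, where 7.0% of all genes were lower. In WT 3 rose and 0 fell, where 7.58% of all genes were higher. Ctsb, a cysteine protease, had log2 ratios of -1.03, -0.91 and -1.11 in KO IL-4 cultures, against 0.21, 0.32 and 0.32 in KO controls, and fell by 1.30 ± 0.10 on the log2 scale (adjusted p = 1.2e-07). In WT it changed by -0.24, and the difference of -1.06 was called. Of 22 genes of sterol and fatty acid synthesis, 0 rose and 7 fell in KO (median -0.52), 3 without mouse 5, and 2 rose and 6 fell in WT. Insig1, the sterol sensor that holds back SREBP, had log2 ratios of -0.99, -0.53 and -0.74 in KO IL-4 cultures, against 0.41, 0.75 and 0.67 in KO controls, and fell by 1.36 ± 0.24 on the log2 scale (adjusted p = 0.00068). Sqle, squalene epoxidase, fell by 1.06 on the log2 scale, a call lost without mouse 5 (adjusted p = 0.0522).

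Lists of energy metabolism differed in their counts. Of 17 genes of fatty acid oxidation 0 rose and 2 fell in KO, and 0 were called after centring or quantile normalization, against 4 higher and 0 lower in WT. Of 16 genes of the respiratory chain and citric acid cycle 0 were called (median 0.01), and of 18 genes of glycolysis and hypoxia 3 rose, or 6 after centring and 5 after quantile normalization. In that last list 0 fell in KO, and 8 rose and 2 fell in WT. Over all genes 5.06% were higher and 7.0% lower in KO. The prolyl hydroxylase gene Egln3, a hypoxia response gene, rose by 2.56.

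Genes of cell division had mostly opposite calls in KO and WT cultures. Of 20, 13 rose and 0 fell in KO (median 1.28), against 1 and 12 in WT (median -1.51). The 13 became 8 without mouse 4 or mouse 6. The list mean was 0.87, 1.11 and 1.17 on the KO IL-4 arrays, against -0.13, 0.11 and -0.01 on the KO control arrays, and -1.70, -1.73 and -1.40 on the WT IL-4 arrays, against 0.42, 0.38 and -0.26 on the WT control arrays. Mcm5, a subunit of the replication helicase, had log2 ratios of 1.89, 2.03 and 1.93 in KO IL-4 cultures, against -0.10, 0.22 and 0.03 in KO controls, and rose by 1.90 ± 0.22 (adjusted p = 1.2e-05). Rrm2, a ribonucleotide reductase subunit, had log2 ratios of 1.77, 2.11 and 2.23 in KO IL-4 cultures, against -0.17, 0.08 and -0.03 in KO controls. Mki67, the Ki-67 antigen of dividing cells, had log2 ratios of 0.63, 0.91 and 1.21 in KO IL-4 cultures, against -0.11, 0.09 and 0.19 in KO controls. The 3 genes were separate on every array, and Mki67 had the smallest rise (0.86 ± 0.23).

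Shorter lists gave mixed counts. Of 21 pattern recognition receptors 4 rose and 2 fell in KO, against 1 and 9 in WT, and of 12 Fc receptor and complement genes 3 rose and 0 fell. Of 11 osteoclast and fusion genes 4 rose, or 2 without mouse 5, and 0 fell in KO (median 1.01), against 7 and 0 in WT (median 1.70). Dcstamp, which is needed for macrophage fusion, rose by 2.48 in KO and 2.46 in WT. Of 10 matrix metalloproteinases 4 rose and 1 fell, and Mmp13, a collagenase, rose by 3.58 in KO and 4.03 in WT. Of 10 genes of eicosanoid synthesis 4 rose and 2 fell, with 5-lipoxygenase, Alox5, higher by 3.00. Of 10 genes of arginine and polyamine metabolism 2 rose and 1 fell (5 and 0 after centring). Of 12 AP-1 and EGR genes 1 rose, and of 12 genes of the ER stress and amino acid response 3 rose (1 without mouse 4) and 2 fell.

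The same IL-4 contrast was then set beside WT. In WT, 5831 probe sets (12.9%) were called, 3156 higher (7.01%) and 2675 lower (5.94%), or 2574 genes (14.1%), 1379 higher (7.58%) and 1195 lower (6.57%). The WT control group was not uniform: the array of mouse 3 was high in IL-4-type and mast cell genes (Arg1 at 2.19, mast cell mean at 0.61), and that of mouse 2 had the highest stromal mean of the group, 3.73. Together with the KO control RSG array of mouse 6 these are the arrays that stood apart. Without them 1 WT control array is left, that of mouse 1. The WT response and the KO minus WT difference then rest on that culture. In KO, 1995 probe sets were higher and 3303 lower without them. Of the 921 genes higher with IL-4 in KO, 184 were also higher in WT (20.0% of the KO genes and 13.3% of the WT genes) and 177 were lower in WT (19.2% and 14.8%). Of the 1273 lower in KO, 333 were also lower in WT (26.2% and 27.9%) and 108 were higher (8.48% and 7.83%). No array was shared by the KO and WT comparisons.

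**Figure D4:**
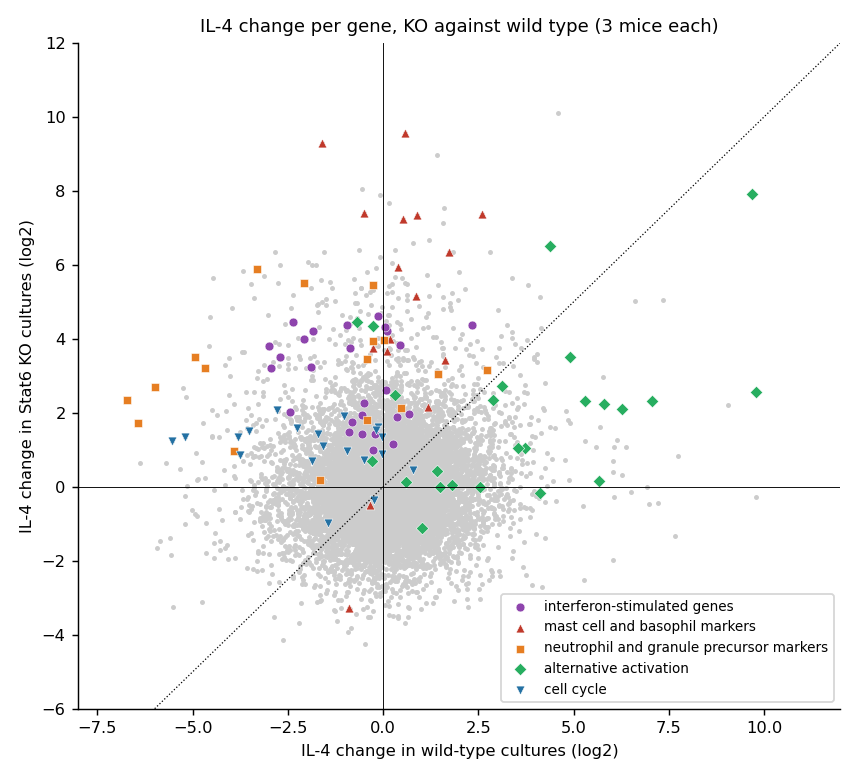
IL-4 change of each of 18193 genes in KO cultures (vertical axis, log2) against its change in WT cultures (horizontal axis, log2), with the members of 5 lists in colour and a dotted line at equal change. The neutrophil and cell cycle members lie mostly at upper left, with medians of 3.15 and 1.28 in KO against -1.65 and -1.51 in WT, and the alternative activation members mostly below the line.

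The difference between the 2 responses, KO change minus WT change, was called for 6561 probe sets (14.6%), 2128 higher (4.73%) and 4433 lower (9.84%), or 2689 genes (14.8%), 975 higher (5.36%) and 1714 lower (9.42%). The median difference over all genes was -0.26. The lower count moved with the arrays used: it was 2779 without all arrays of mouse 2 and 2672 without those of mouse 3. It was 3818, 3504 and 5072 without the WT control array of mouse 2, 3 or 1 alone. By list, 24 of 26 interferon-stimulated genes had a higher response in KO (23 after quantile normalization), 15 of 17 neutrophil genes (15) and 16 of 20 cell cycle genes (16). So did 11 of 17 cytokines (11) and 12 of 16 interferon-gamma genes (12). Mast cell markers had 11 of 16 higher, or 10 after quantile normalization, cytotoxic markers 7 of 15, or 6, and T cell markers 4 of 13, or 4. A lower response in KO was called for 11 of 24 alternative activation genes, or 7 after quantile normalization. The same held for 9 of 23 genes of PPARγ and lipid handling (6), 8 of 20 lysosomal genes (5) and 8 of 17 fatty acid oxidation genes (4).

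Single genes showed the same range. Among the 15 largest rises, Fcer1a had a difference of 8.99 and Mcpt8 of 10.89, against 7.74 and 8.95 without the arrays that stood apart. That omission leaves 1 WT control array, so only sizes are given for it here. The difference for Cd3d was 5.55, against 4.15 without those arrays, and that of Cish was -1.14, against -1.24. For interferon-stimulated and inflammatory genes the differences were 6.84 for Ifit3, 6.07 for Mx1 and 7.33 for Cxcl10, and they were 6.51, 5.41 and 6.98 without those arrays. Mcm5 and Mki67 had differences of 2.94 and 4.62, against 2.98 and 4.86 without those arrays.

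The KO mice also gave cultures with RSG, a synthetic ligand of PPARγ, which served as a second set of arrays for the IL-4 response. In them, IL-4 changed 3076 probe sets (6.83%), 1436 higher (3.19%) and 1640 lower (3.64%), or 1430 genes (7.86%), 762 higher (4.19%) and 668 lower (3.67%). The counts fell to 668 higher without mouse 5, and to 663 and 746 lower without mouse 4 and mouse 5. Of the 921 genes higher without RSG, 560 were also higher with it (60.8% of them, and 73.5% of those higher with RSG), and of the 1273 lower without RSG, 448 were also lower (35.2% and 67.1%). Genes called in opposite directions numbered 3 and 1. The mast cell list had 14 rises with RSG, the neutrophil list 15 (median 2.81), the cytotoxic list 11 (median 3.87) and the T cell list 10. The 2 sets came from the same 3 mice but shared no array.

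Interferon-stimulated genes had smaller IL-4 changes where RSG was present, and the calls of this difference moved with the arrays and the scaling. The list mean was 0.89, 0.85 and 0.92 in KO IL-4 cultures with RSG, against -0.50, -0.32 and -0.62 in KO controls with RSG, and 17 of the 26 rose (median 1.43, against 3.22 without RSG). All 26 had a smaller IL-4 change with RSG. The difference between the IL-4 changes, with RSG minus without, was called for 32 probe sets (0.0711%), 2 higher (0.00444%) and 30 lower (0.0666%), or 21 genes (0.115%), 2 higher (0.011%) and 19 lower (0.104%). Of the 26 list members 9 were among them on the probe set used for the gene, against a share of 0.104% of all genes. These genes were named after their values were seen. Without mouse 6 limma called 0 probe sets, without mouse 4 there were 2 higher and 3 lower, and without mouse 5 there were 1 and 4. The 12 KO arrays or the compared arrays alone also gave 1 and 4, and quantile normalization 1 and 11, and Ifit3, Ifit1, Usp18 and Isg20 lost the call in each of these. At an unadjusted p under 0.05, 3430 probe sets passed in the fit on all arrays. Each call of such a difference named below was thus lost without mouse 6.

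Ifit3 had log2 ratios of 1.65, 1.31 and 1.32 in KO IL-4 cultures with RSG, against -0.06, 0.05 and -0.72 in KO controls with RSG, a rise of 1.67 where the rise with vehicle was 4.46. The difference was -2.79 (adjusted p = 0.0061, and 0.0966 without mouse 6). Ifit1 had log2 ratios of 1.71, 1.24 and 1.23 in KO IL-4 cultures with RSG, against -0.30, -0.11 and -0.64 in KO controls with RSG, and the difference was -2.06 (adjusted p = 0.011, and 0.119 without mouse 6). Oasl1 had log2 ratios of 1.56, 1.30 and 1.10 in KO IL-4 cultures with RSG, against -0.36, -0.01 and 0.01 in KO controls with RSG. The IL-4 arrays stayed above the control arrays for all 3 genes, by less than with vehicle. Usp18, which removes the ubiquitin-like ISG15, and Isg20, an RNA exonuclease, had differences of -2.36 and -2.01. Mx2 had log2 ratios of -0.12, 0.21 and 2.00 in KO IL-4 cultures with RSG, against 0.45, -0.04 and -0.28 in KO controls with RSG, with overlap, and its difference of -3.96 was not called (adjusted p = 0.062).

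**Figure D5:**
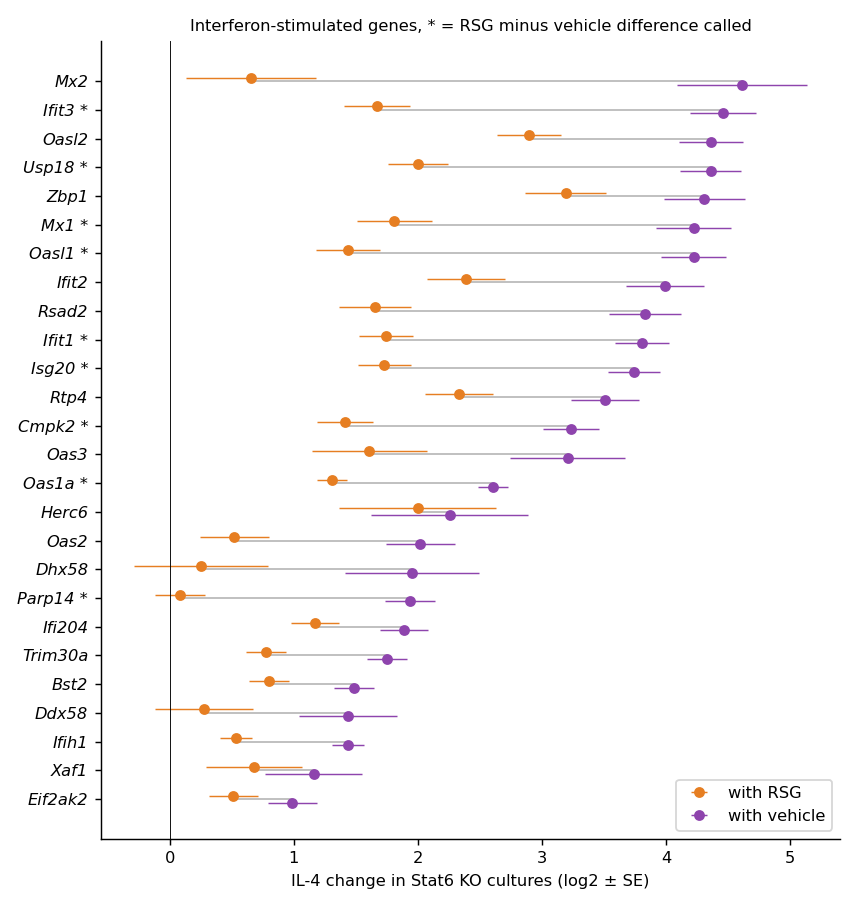
IL-4 change ± SE (horizontal axis, log2) of 26 interferon-stimulated genes in KO cultures with RSG (orange) and with vehicle (purple), 3 mice each, with an asterisk where the difference was called. All 26 orange points lie to the left of their purple points.

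A few genes outside that list also differed. Sema4b, a semaphorin, had log2 ratios of 0.22, 0.12 and 0.19 in KO IL-4 cultures with RSG, against -2.08, -1.25 and -1.93 in KO controls with RSG. With vehicle it was at -2.66, -2.60 and -2.72 in KO IL-4 cultures, against -0.13, -0.15 and 0.44 in KO controls (log2 ratios). IL-4 thus raised Sema4b with RSG and lowered it without, a difference of 4.64 (adjusted p = 0.0012). Enpep, an aminopeptidase of stromal and epithelial cells, had log2 ratios of -0.13, -1.58 and -1.96 in KO IL-4 cultures with RSG, against 0.24, 0.55 and 1.33 in KO controls with RSG, while with vehicle it was at 1.12, 1.16 and 0.23 with IL-4, against -2.12, -3.16 and -4.26 without. Ptx3, a secreted pentraxin, had log2 ratios of -0.77, 0.05 and -0.42 in KO IL-4 cultures with RSG, against 1.51, 0.87 and 3.75 in KO controls with RSG. For both, the KO control RSG array of mouse 6 held the highest value, and on that array the stromal mean was 5.77, against 1.63 and 1.90 for mice 4 and 5. The part of stromal RNA in these 2 differences was not tested. Without that array and the others that stood apart the Enpep difference was -5.63 (adjusted p = 0.0338) and that of Ptx3 was -5.05 (adjusted p = 0.0819).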

How the data were processed

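RNA of macrophage cultures from 6 mice, 3 KO and 3 WT, was measured on Affymetrix mouse arrays covering the genome, 24 in all with 1 for each culture. The authors deposited 1 table of linear ratios: per the study's methods, scans were summarised with GC-RMA, scaled to the 50th percentile of each chip and divided by the median of each probe set over the arrays. A further division by the vehicle control is named in the methods, but the deposited ratios do not carry it. The ratios ran from 0.01 to 1949.69. In 27 probe sets 37 values sat at the lowest ratio, and a fold against them is only a bound. No count or depth lies behind a ratio, so precision is limited by how many arrays there were. The median was 1 within 0.001 for 38889 probe sets (86.3%). No arrays held identical values, and 0 columns of samples were left unused. Fold changes and p-values of the study were not used.

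The table had 45101 probe sets, including 64 Affymetrix controls that were dropped. Log2 ratios of the other 45037 were fitted over the 8 groups (24 arrays) by lmFit and eBayes of limma 3.58.1, without a variance trend, in R 4.3.3. Residual degrees of freedom were 16 and prior ones 1.36. Tests were two-sided, p-values were adjusted by Benjamini-Hochberg over all probe sets, and a call needed an adjusted p under 0.05 and a 1.5-fold change, as in the study's methods. The contrasts were the IL-4 response in KO, in WT and in KO with RSG, and the differences of the first from each of the others. The code was tested on simulated data.

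Platform annotation gave 34945 probe sets 1 symbol, 932 several and 9160 none. Of those with 1 symbol 34741 matched RefSeq, for 18193 genes. A gene was represented by 1 probe set, chosen by probe class and then by the variance over the 18 arrays outside the comparison. Promoters came from RefSeq on GRCm38.p6.

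The 42 gene lists (629 genes, of which 568 were measured) and the comparison itself were chosen with earlier results of these data known. Genes were named by a rule: the 15 largest called rises and falls with separate arrays, up to 6 called members of each list in each direction, any member of a list of 12 or fewer, and genes of the study's text. Genes whose response differed with RSG were named after their values were seen. Of 280 list genes with several probe sets 0 had calls in opposite directions, and 10 were read on probe sets that can detect other transcripts.

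Per the labels, arrays with the same number came from 1 mouse. The fit had no mouse term, as the study's methods name none. Deviations of arrays of the same mouse from their group means hardly correlated, with a mean r of 0.011 (-0.023 to 0.046) over 36 pairs and 0 above 0.1. Alternatives were the mouse as a block, a variance trend, fits on the 12 KO arrays or on the compared arrays alone, the methods' t-test after adjustment, centring, quantile normalization, probe sets with a median of 1, another probe set per gene, and leaving out each mouse, each array or the arrays that stood apart.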

Additional observations from a re-analysis of the deposited data

Results flagged for a closer look

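In these genes the IL-4 response differed between the genotypes, by the test of KO change minus WT change in limma (called values, log2). Higher in KO than in WT were the responses of the feedback inhibitor Socs3 (5.66), the interferon-stimulated genes Ifit3 (6.84), Irf7 (5.84) and Mx1 (6.07), and the inflammatory genes Il6 (7.56), Cxcl10 (7.33), Ccl5 (6.57) and Ccr7 (7.91). The same held for Gzmb (5.52) and Cd3d (5.55) of lymphocytes, Fcer1a (8.99) and Mcpt8 (10.89) of mast cells and basophils, Mpo (7.59) and S100a8 (4.88) of granulocytes, and Mcm5 (2.94) and Mki67 (4.62) of the cell cycle. Idi1 of sterol synthesis (1.55) and the scavenger receptor Stab1 (3.71) fell in both genotypes, less in KO, but the KO fall of Idi1 (-1.02) lost its call in 11 of 21 alternatives. The response was lower in KO than in WT for Pparg (-1.92), Mrc1 (-2.12), Cish (-1.14), Ctsb (-1.06) and Acadm (-0.91). Of these, Gzmb lost its call in 15 of 25 alternatives, Cish in 8 and Idi1 in 7.

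In a second set of genes the IL-4 response of KO cultures differed with RSG, by the test of the change with RSG minus the change with vehicle. Interferon-stimulated and related genes had smaller changes with RSG: Ifit3 (-2.79), Oasl1 (-2.78), Ifit1 (-2.06), Ifit1bl1 (-3.27), Usp18 (-2.36), Isg20 (-2.01), Mx1 (-2.41), Cmpk2 (-1.82), Oas1a (-1.30), Ifi35 (-1.24), Parp9 (-1.02), Parp14 (-1.85), Phf11d (-2.03), Rnf213 (-1.08) and Znfx1 (-1.51). The other genes were Enpep (-5.95), Ptx3 (-5.90), Rai14 (-4.94) and Lnpk (-4.12), with lower values with RSG, and Sema4b (4.64) and Mmp12 (1.91), with higher values. Probe sets of Rai14 did not move in 1 direction. None of these was called without mouse 6, and Parp9, Mx1, Cmpk2, Ptx3, Lnpk and Mmp12 lost their calls in 20 or more of 26 alternatives.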

How the results depend on the processing

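The same mice gave the arrays with and without IL-4, and with the mouse as a block the IL-4 response in KO had 1904 probe sets higher and 3279 lower, against 1915 and 3271 without the block. The response with RSG minus that with vehicle had 1 higher under the block, and no other count moved by over 1.5 times with the pairing.

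For the IL-4 response in KO, the methods' t-test gave 1247 higher and 1910 lower, a fit on the 6 arrays alone 1558 lower, and centring 2076 lower, while leaving out single mice or arrays gave 1298 to 1888 higher and 2253 to 3417 lower. For KO minus WT, quantile normalization gave 2051 lower and leaving out the arrays that stood apart 2252, and single omissions gave 1559 to 2081 higher and 2672 to 5072 lower. For WT, the compared arrays alone gave 1655 higher and 1197 lower, the methods' t-test 1793 and 1121, and omission of the arrays that stood apart 1915 higher, with 2175 to 3394 higher and 1786 to 2611 lower over single omissions. For KO with RSG, the compared arrays alone gave 605 higher and 140 lower and the methods' t-test 380 and 182, with 668 to 1518 higher and 663 to 1725 lower over single omissions. For the difference with RSG, the variance trend gave 6 higher and 47 lower, the 12 KO arrays or the compared arrays alone 1 and 4, centring 7 and 69, and quantile normalization 1 and 11. Without the arrays that stood apart 10 were higher, and single omissions gave 0 to 10 higher and 0 to 56 lower. The causes were not tested.

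Of 325 named genes tested for the IL-4 response in KO, 210 were called and 86 of those lost the call under at least 1 alternative, and 0 reversed. The ratios hold no signal over background, so which genes were too dim to measure is not known.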
